A study of Mus musculus with 22 samples.

Results

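The apolipoprotein L family was followed through 22 RNA-seq libraries of mouse spleen cells. Its members were chosen by gene symbol, as the 9 genes Apol6, Apol7a, Apol7b, Apol7c, Apol7e, Apol8, Apol9a, Apol9b and Apol10b, out of 55487 genes in the deposited tables. They were selected on their measured levels over the 4 groups and on the size of the ox-LDL effect in monocytes, so both are given below as descriptions with no test. All cells came from the spleens of wild-type male C57BL/6 mice. The monocyte groups were primary splenic monocytes kept in culture and given vehicle (n = 6, replicates 1 to 6) or oxidised low-density lipoprotein (ox-LDL) at 50 µg/mL for 24 h (n = 5, replicates 7 to 11). The macrophage groups were made from such monocytes with phorbol myristate acetate (PMA) at 200 ng/mL for 5 days, and were then given vehicle (n = 5, replicates A to E) or ox-LDL at the same dose and time (n = 6, replicates G to L). The macrophages thus differed from the monocytes in PMA and in days of culture together, and these cannot be told apart. The labels do not say how old the mice were, whether the monocyte cultures were given a solvent in place of PMA, or whether libraries came from separate mice or cultures. Each SD and p-value thus measures only the spread between these libraries, which may be technical.

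Apolipoprotein L proteins carry amphipathic helices that insert into membranes, and several act on membranes inside cells. The family is named after the human serum protein APOL1, which lyses trypanosomes, and has expanded by duplication in mice. Many members are induced by interferons and other inflammatory signals. Apol9a and Apol9b are known as interferon-induced genes, and the Apol7c protein has been described in dendritic cells, where it is recruited to phagosomes.

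The 9 genes lie on mouse chromosome 15, in the GRCm38 coordinates of the deposited tables. Apol6 stands apart at chr15:77044729-77057106, and the other 8 run from Apol7a at chr15:77388219-77399110 to Apol8 at chr15:77747798-77757003. Apol7c occupies chr15:77524852-77533316 on the minus strand and Apol10b chr15:77583819-77596125 on the same strand. The sequences just before the annotated starts are shown first, because the family is known for its response to interferons and the copies differ in whether they hold an interferon-related motif. RefSeq promoter windows (GRCm38.p6, 250 bases before to 50 bases after the start) were matched for 8 of 9 members, all but Apol6. Each line below gives the 110 bases before the start, 5′ to 3′ on the gene's strand. Capitals mark matches on either strand to GAAANNGAA, the core of the interferon-stimulated response element (ISRE) bound by interferon-activated factors. Overlapping matches run into each other.
Apol7c (chr15:77533316-77533425, minus strand): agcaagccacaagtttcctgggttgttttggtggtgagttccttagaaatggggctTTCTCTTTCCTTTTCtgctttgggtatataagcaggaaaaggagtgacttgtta
Apol7b (chr15:77447461-77447570, minus strand): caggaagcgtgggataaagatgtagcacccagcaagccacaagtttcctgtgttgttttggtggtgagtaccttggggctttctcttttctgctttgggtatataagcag
Apol7e (chr15:77698779-77698888, plus strand): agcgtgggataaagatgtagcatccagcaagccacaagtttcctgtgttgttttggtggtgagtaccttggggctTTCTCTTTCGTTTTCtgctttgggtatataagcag
Apol7a (chr15:77399111-77399220, minus strand): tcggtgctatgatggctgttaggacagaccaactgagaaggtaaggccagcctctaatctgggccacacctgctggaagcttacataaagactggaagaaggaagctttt
Apol9a (chr15:77411081-77411190, minus strand): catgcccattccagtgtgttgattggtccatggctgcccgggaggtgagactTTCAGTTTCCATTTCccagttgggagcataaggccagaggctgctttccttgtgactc

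The core occurred in 8.6% of the 32851 promoter windows of 300 bases in the table. It occurred in 5 of the 8 members' windows, with 2 overlapping matches each in Apol7c, Apol7e, Apol9a and Apol9b and 1 match across the start of Apol10b. In Apol7c the matches began 54 and 48 bases before the start, on the strand opposite to the gene. Apol7a, Apol7b and Apol8 held no match in this window. A second interferon-related motif, TTCNNNGAA (the gamma-activated site), was found in 8.3% of all windows and in no member's. Gaps aside, the 250 bases before the starts of Apol7b and Apol7e were 99.6% identical over 245 aligned bases, in an alignment of 250 columns. Apol7c was 93.4% identical to Apol7b over 212 bases, in 231 columns. In the lines above, the stretch marked in Apol7e is shorter in Apol7b, a difference that these percentages leave out. The corresponding windows of Apol9a and Apol9b were identical over 228 aligned bases. A match is a match of letters, not a shown binding site.

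Reads can move between these copies. The longest coding transcripts of Apol7b and Apol7e were 99.3% identical over 2208 aligned bases, gaps aside, and those of Apol9a and Apol9b 98.4% over 1475 bases. Apol7c was 89.7% identical to Apol7a and 80.5% to Apol7b. Of all 50-base stretches, 26.2% of Apol7c, 15.7% of Apol7a, 75.6% of Apol7b, 76.0% of Apol7e, 57.5% of Apol9a, 51.4% of Apol9b and 6.1% of Apol10b also occurred in a transcript of another gene of the mouse annotation (GENCODE M21). At 100 bases the shares fell to 6.4% for Apol7c, 3.8% for Apol7a and 0.0% for Apol10b, but stayed at 56.9% for Apol7b and 58.4% for Apol7e. Apol8 and Apol6 shared no stretch of either length. How reads that map to several genes were counted is not stated in the labels or the tables. The values of Apol7b against Apol7e, and of Apol9a against Apol9b, are therefore uncertain. In the tables, Apol7e also overlaps the opposite-strand gene Gm36329 over 324 of its 2414 exon bases, and Apol6 overlaps the myoglobin gene Mb over 64 of 4498.

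The libraries held 37330389 to 50257111 counted reads. Levels are CPM, read counts scaled to a library of 1000000 with TMM factors over all 22 libraries. The cultures labelled monocytes carried monocyte markers at lower levels than the macrophages: the summed level of 12 markers was 1027 to 2302 CPM with vehicle and 1047 to 1942 CPM with ox-LDL, against 2848 to 6965 CPM in the macrophages. Most of that sum was Csf1r, the receptor for macrophage colony-stimulating factor, at 791 ± 237 CPM in vehicle monocytes (SD, n = 6) and 4564 ± 957.5 CPM in vehicle macrophages (SD, n = 5). Ly6c2, which marks classical monocytes, was at 107 ± 112 and 1.30 ± 0.85 CPM in the same groups. Markers of mature dendritic cells were abundant in them, at 13462 to 21931 CPM summed over 19 genes, against 313 to 394.8 CPM in vehicle macrophages. Ccr7, the chemokine receptor that guides mature dendritic cells to lymph nodes, averaged 6997 ± 1114 CPM in vehicle monocytes (SD, n = 6) and 2.39 ± 1.83 CPM in vehicle macrophages (SD, n = 5). Replicates 5, 6, 10 and 11 of the monocytes stood apart by neutrophil markers, with a sum of 33622 to 49268 CPM against 5300 to 6538 CPM in the other 7. Replicates 1, 2 and 7 stood apart by low erythroid markers, at 423.8 to 849.4 CPM against 6587 to 14487 CPM.

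Apol7c carried almost the whole family signal in monocytes and was close to absent in macrophages. In vehicle monocytes its level was 2899.5, 2999.8, 3146, 3489, 2789.5 and 2445 CPM in replicates 1 to 6. With ox-LDL it was 2245.5, 2696, 2519, 1858 and 1871 CPM in replicates 7 to 11. Of the 6 vehicle libraries, 5 lay above all 5 ox-LDL libraries, and replicate 6 overlapped with them. By mean CPM, Apol7c ranked 22 of 55487 genes in vehicle monocytes and 41 with ox-LDL. In macrophages it had 34 reads in all 5 vehicle libraries together, at 0.17, 0.06, 0.28, 0.20 and 0.09 CPM, and 7 reads in all 6 ox-LDL libraries, at 0, 0.05, 0.02, 0.05, 0.05 and 0 CPM. From summed reads, the monocyte level was 18399 times the macrophage level with vehicle (95% exact binomial interval 13167 to 26568) and 81336 times with ox-LDL (39476 to 202303). These intervals cover counting error only and treat counts as independent. Low counts in these tables leaned to even numbers, with 49397 counts of 2 and 26570 counts of 1 over all genes and libraries, so the intervals may be too narrow.

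**Figure D1:**
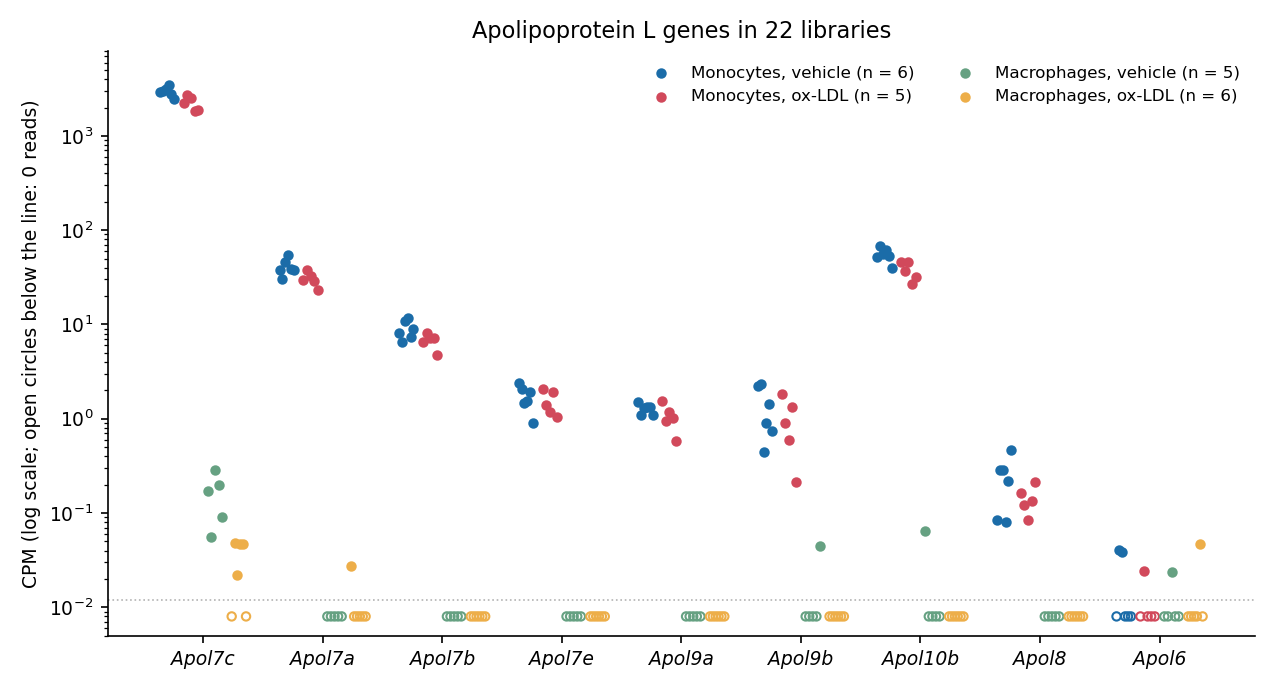
CPM of each of the 9 members in every library on a log axis, coloured by group; filled points are libraries with reads and open circles below the dotted line are libraries with 0 reads. Apol7c lies between 1858 and 3489 CPM in all 11 monocyte libraries and at or under 0.28 CPM in all 11 macrophage libraries.

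The fold of Apol7c is set here beside those of other genes abundant in vehicle monocytes. Its levels were among those that chose it, and the set was picked by the monocyte level, so the rank is a description only. Large folds were found for other genes of the set too, with Dusp5, at rank 14, still at 100.1. Of the 99 genes whose mean reached 1000 CPM in vehicle monocytes, only Retnlg, a resistin-like gene of neutrophils, had a larger fold between vehicle monocytes and vehicle macrophages. Apol7c averaged 2961.5 CPM against 0.16 CPM by group means. It was followed by the globin genes Hbb-bs and Hba-a2 and by the neutrophil genes S100a9, Ngp and Ltf. Ccr7 and Fscn1, which mark mature dendritic cells, were also among the first 10. These genes are named here for their rank, and the list was chosen after values were seen. In bulk RNA, fewer cells of a type and less RNA per cell cannot be told apart, and the summed markers of other cell types were also lower in macrophages. In vehicle macrophages the 14 neutrophil markers summed to 181 to 311 CPM, the 10 erythroid markers to 9.57 to 27.4 CPM and the 9 B-cell markers to 36.2 to 46.2 CPM, and in vehicle monocytes to 6083 to 49268, 423.8 to 10453 and 289.6 to 1089 CPM. Their part in the result was not tested.

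**Figure D2:**
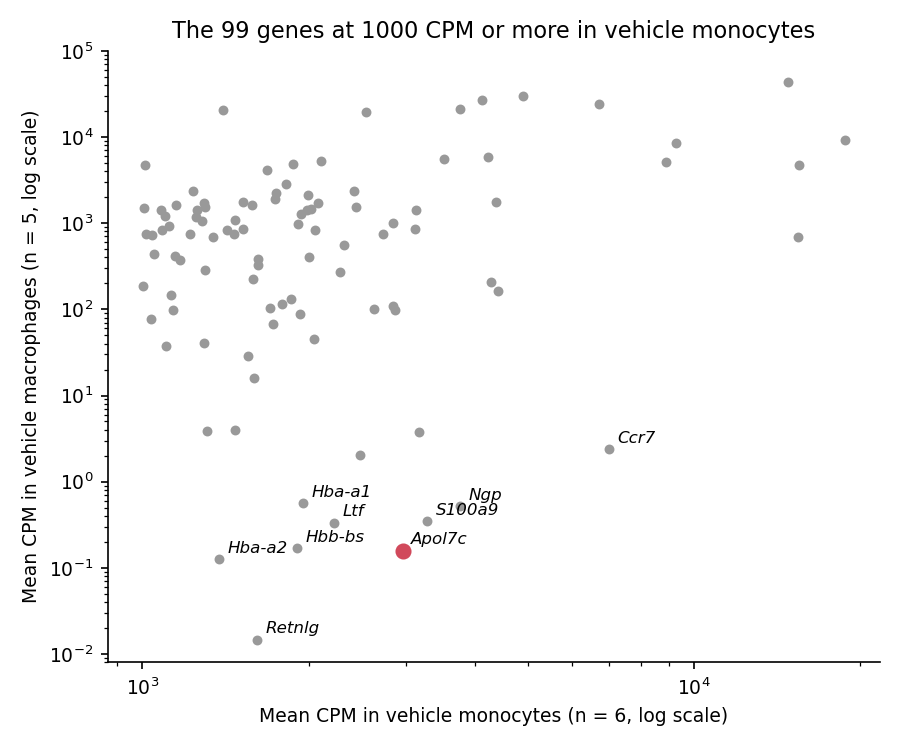
Mean CPM in vehicle monocytes (x axis, log scale) against mean CPM in vehicle macrophages (y axis, log scale) for the 99 genes at 1000 CPM or more in vehicle monocytes; each point is a gene and Apol7c is red. Apol7c is at 2961.5 CPM on the x axis and 0.16 CPM on the y axis, and only Retnlg has a larger fold.

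The other members were lower in every monocyte library. Per kilobase of deposited gene length, the order of mean levels in vehicle monocytes was Apol7c (1438 ± 170 CPM per kb, SD, n = 6), Apol10b (23.6 ± 4.09), Apol7a (13.6 ± 2.83), Apol7b (3.65 ± 0.83), Apol9b (0.74 ± 0.44), Apol7e (0.71 ± 0.22), Apol9a (0.21 ± 0.03), Apol8 (0.08 ± 0.05) and Apol6 (0.0029 ± 0.0046). The library ranges of neighbours in this order overlapped for Apol10b and Apol7a and for Apol9b and Apol7e, so these pairs are not ordered beyond their spread. The deposited length of Apol9a, 5953 bases, is over 3 times that of its near-copy Apol9b, 1821 bases, which lowers its level per kilobase. By CPM, which does not use length, Apol9a averaged 1.27 ± 0.15 and Apol9b 1.35 ± 0.80 (SD, n = 6). With ox-LDL the order was the same but for Apol7e and Apol9b, whose ranges overlapped again. The ranges of Apol10b and Apol7a also overlapped again. Those of Apol9b (0.118 to 1.01 CPM per kb) and Apol9a (0.098 to 0.260 CPM per kb), neighbours in this order, overlapped as well.

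The share of Apol7c among the reads of all 9 members lay between 96.3% and 96.9% in the 11 monocyte libraries. Apol7a reads were 1.00% to 1.58% of Apol7c reads, Apol7b reads 0.219% to 0.383%, Apol7e reads 0.0369% to 0.102% and Apol10b reads 1.38% to 2.25%. Between libraries, the ratio of Apol7a to Apol7c thus varied by 1.57 times and that of Apol7e by 2.78 times. The ratio of Apol9b to Apol9a reads ran from 0.338 to 2.13, a range of 6.3 times for a pair of genes whose transcripts are 98.4% identical.

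Apol10b, the second member by level, was at 51.7, 67.5, 55.8, 61.5, 53.2 and 39.5 CPM in vehicle monocytes and at 46.0, 37.3, 46.4, 26.9 and 32.2 CPM with ox-LDL. Apol7a was at 37.8, 30.1, 46.3, 55.1, 39.0 and 38.2 CPM with vehicle and at 29.3, 37.6, 32.8, 29.0 and 23.0 CPM with ox-LDL. Apol7b was at 8.03, 6.56, 10.9, 11.6, 7.29 and 9.00 CPM with vehicle and at 6.56, 8.10, 7.12, 7.12 and 4.69 CPM with ox-LDL. The treatment groups overlapped for all 3 genes, and replicate 4 with vehicle and replicate 11 with ox-LDL held the highest and the lowest values of both Apol7 copies.

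In macrophages these members were at or near 0. Apol7a, Apol7b, Apol7e, Apol9a and Apol8 had 0 reads in all 5 vehicle libraries. Against a floor of 3 reads summed over the macrophage group, their levels in vehicle monocytes were at least 2895-fold, 629-fold, 120.5-fold, 89.4-fold and 16.9-fold higher, in that order. Apol10b had 3 reads in replicate A and none in the other 4 libraries, a ratio of 3861 (95% interval 1321 to 18722). Apol9b had 2 reads in replicate E, a ratio of 141 (38.7 to 1165). With ox-LDL, Apol7a had 1 macrophage read, a ratio of 7698 (1381 to 304079). That read was in replicate G, and without this library Apol7a has 0 macrophage reads and a monocyte level at least 2198-fold higher. With ox-LDL, Apol10b and Apol7b had 0 macrophage reads, so that their monocyte levels were at least 3230.0-fold and 568-fold higher. Apol6 was barely detected anywhere, with 4 reads in vehicle monocytes and 1 in vehicle macrophages, a ratio of 2.89 whose interval runs from 0.286 to 142.

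A pseudogene in the cluster shared the pattern of Apol7c. Gm8221, an unprocessed pseudogene at chr15:77621834-77626637 on the plus strand, lies outside the 9 members and was singled out after its values were seen. Its transcript of 1110 bases is 97.0% identical to Apol7c, and 327 of the 2011 stretches of 50 bases in Apol7c occur in it. It was at 314 ± 79.3 CPM in vehicle monocytes (SD, n = 6), at 229 ± 68.1 CPM with ox-LDL (SD, n = 5) and at 0.028 and 0.015 CPM in vehicle and ox-LDL macrophages. Its reads were 7.86% to 9.09% of Apol7c reads in the 4 neutrophil-high libraries and 9.14% to 13.0% in the other 7. Whether Gm8221 is transcribed or takes reads from Apol7c was not tested.

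The other apolipoprotein L genes of the annotation were low. Apol11b, the highest of them, differed between the neutrophil-high monocyte libraries and the others. It was at 12.5 to 15.2 CPM in the 4 neutrophil-high monocyte libraries and at 1.43 to 6.54 CPM in the other 7, with no overlap, whichever treatment was given. The share of all genes that separate the same libraries was not counted, so nothing is read from this separation. Among those 7 it was at 1.43 to 2.09 CPM in replicates 1, 2 and 7, which are low in erythroid markers, and at 4.67 to 6.54 CPM in replicates 3, 4, 8 and 9. Apol7c was at 1858 to 2789.5 CPM in the 4 neutrophil-high libraries and at 2245.5 to 3489 CPM in the other 7, which overlap. The neutrophil-high libraries also had higher summed monocyte markers (1716 to 2302 against 1027 to 1500 CPM) and macrophage markers (16055 to 25348 against 7541 to 12475 CPM). Their summed mature dendritic cell markers were lower (13462 to 15010 against 18641 to 21931 CPM). The part of any cell type in the Apol11b level was not tested. Apol11a averaged 0.55 CPM in vehicle monocytes and Apol7d, Apol10a and Apold1 reached at most 0.471 CPM in any library.

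Genes just outside the cluster were detected in both cell types. Myh9, which encodes the heavy chain of non-muscle myosin and lies next after Apol8, was at 971 ± 416 CPM in vehicle monocytes (SD, n = 6) and 595 ± 90.1 CPM in vehicle macrophages (SD, n = 5). Gm22107, inside the Myh9 region, was at 5.53 and 0.83 CPM. On the side of Apol6, 1110038F14Rik was at 13.3 and 11.2 CPM and Zfp647 at 0.49 and 1.39 CPM in the same groups.

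With ox-LDL, all 7 members that passed the low-count filter in monocytes had estimates below 0. The log2 fold changes were -0.41 ± 0.14 for Apol7c, -0.44 ± 0.16 for Apol7a, -0.41 ± 0.19 for Apol7b, -0.54 ± 0.17 for Apol10b, -0.19 ± 0.28 for Apol7e, -0.27 ± 0.25 for Apol9a and -0.47 ± 0.52 for Apol9b (estimate ± standard error, edgeR). Apol8 and Apol6 were too low to enter the fit. The median over all 16575 genes tested was 0.00, and 50% of genes lay between -0.22 and 0.18. In this comparison 4 genes of 16575, or 0.0241%, had an adjusted p under 0.05 by edgeR's quasi-likelihood test, and 261 genes, or 1.57%, had treatment groups that did not overlap. Of the 7 members, 0 passed the first criterion (4 had an unadjusted p under 0.05, as had 1718 or 10.4% of all genes tested, and DESeq2 and limma voom also called 0) and 0 met the second. The rule used this contrast, so nothing is read from these counts.

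**Figure D3:**
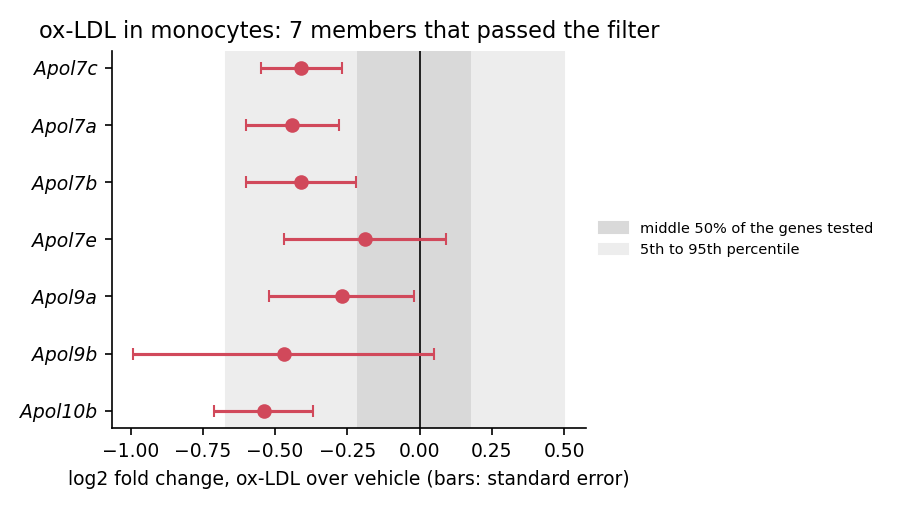
log2 fold change of ox-LDL over vehicle in monocytes (x axis) for the 7 members that passed the filter, with bars for the standard error; the dark band holds the middle 50% of the 16575 genes tested and the light band reaches from the 5th to the 95th percentile. All 7 points lie below 0, from -0.54 for Apol10b to -0.19 for Apol7e.

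The 2 library sets give the values in more detail. For Apol7c, the 4 vehicle libraries outside the neutrophil-high set lay at 2899.5 to 3489 CPM and the 3 ox-LDL libraries at 2245.5 to 2696 CPM, while within the set the vehicle libraries lay at 2445 and 2789.5 CPM and the ox-LDL libraries at 1858 and 1871 CPM. For Apol10b, the same ranges were 51.7 to 67.5 against 37.3 to 46.4 CPM outside the set, and 39.5 and 53.2 against 26.9 and 32.2 CPM within it. For both genes the treatments did not overlap in either set, as for 792 of the 16575 genes, or 4.78%, that were separated in the same direction in both. Nothing is read from this either.

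**Figure D4:**
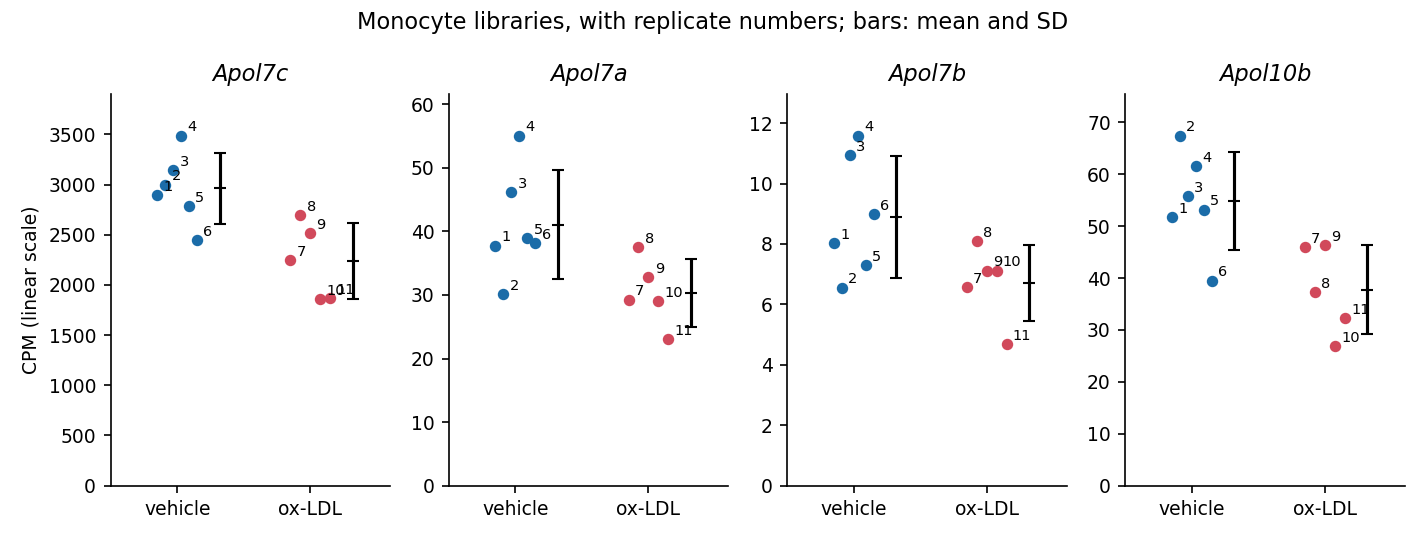
CPM of Apol7c, Apol7a, Apol7b and Apol10b in each monocyte library on linear axes from 0, with replicate numbers beside the points and bars for the mean and SD of each treatment (n = 6 with vehicle, n = 5 with ox-LDL). Replicates 10 and 11, both neutrophil-high libraries given ox-LDL, hold the 2 lowest Apol7c values, 1858 and 1871 CPM.

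The summed mature dendritic cell markers overlapped between the treatments. Their level was 14863 to 21931 CPM with vehicle and 13462 to 20221 CPM with ox-LDL. All 19 genes had reads in each group, but Ccl17 (0.05 and 0.07 CPM) and Il4i1 (0.24 and 0.10 CPM) were near 0. Ccr7 was the largest part of the sum, at 6997 and 6747 CPM on average. Relative to that sum, Apol7c stood at 14.7% to 18.8% with vehicle (16.1% ± 1.48, SD, n = 6) and at 11.5% to 14.5% with ox-LDL (13.0% ± 1.16, SD, n = 5). Apol10b stood at 0.262% to 0.358% with vehicle and 0.200% to 0.236% with ox-LDL. The treatments did not overlap in these shares, as for 262 of the 16575 genes, or 1.58%, when divided by the same sum, and nothing is read from it. Some other marker sums differed in mean between the treatments. The 6 markers of plasmacytoid dendritic cells summed to 128.7 to 194.0 CPM with vehicle and to 63.96 to 114.9 CPM with ox-LDL. These ranges do not overlap, as for 1.57% of single genes tested. Most of the difference was 1 gene, Spib, at 121 ± 24.7 and 53.8 ± 19.2 CPM. Siglech went the other way at a low level, 0.35 and 0.52 CPM. Of the 5 markers tested, 4 had estimates below 0 and 1 above, and edgeR called 0. The 13 macrophage markers summed to 11223 ± 3892 CPM with vehicle (SD, n = 6) and 15563 ± 6121 CPM with ox-LDL (SD, n = 5), with overlapping ranges. Of these markers, 7 had log2 estimates above 0 and 6 below, with a median of 0.06, and edgeR called 0. The higher mean sum came mainly from Lyz2 (6731 and 9194 CPM) and Gpnmb (1398 and 2977 CPM). C1qa, C1qb and C1qc had lower means with ox-LDL. The part of changing cell shares in the members' values was not tested.

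Apol9b and Apol7e were highest in the libraries with the most B-cell marker RNA. The summed level of 9 B-cell markers, such as Cd79a, was highest in replicates 1, 2 and 7, at 1089, 867 and 759 CPM. Apol9b was at 2.24, 2.35 and 1.83 CPM in these 3 libraries and at 0.22 to 1.43 CPM in the other 8. Apol7e was at 2.41, 2.08 and 2.05 CPM in them and at 0.90 to 1.91 CPM elsewhere. The share of all genes that are highest in the same 3 libraries was not counted, so nothing is read from this separation. The same 3 libraries were the ones low in erythroid markers, and 2 of them received vehicle and 1 ox-LDL. They also had the highest summed markers of stroma, endothelium and epithelium, at 58.2 to 59.7 CPM against 38.8 to 53.8 CPM elsewhere. Summed T and NK cell markers were at 62.0 to 71.7 CPM in them. Those markers reached 101.2 and 62.8 CPM in replicates 5 and 10, where Apol7e was next highest (1.91 and 1.90 CPM), and 20.4 to 37.2 CPM in the rest. The part of B cells or of any other cell type in these levels was not tested. In macrophages, where Apol9b and Apol7e were at or near 0, Pax5 had 0 reads in both groups and the summed B-cell level was 33.1 to 67.7 CPM.

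**Figure D5:**
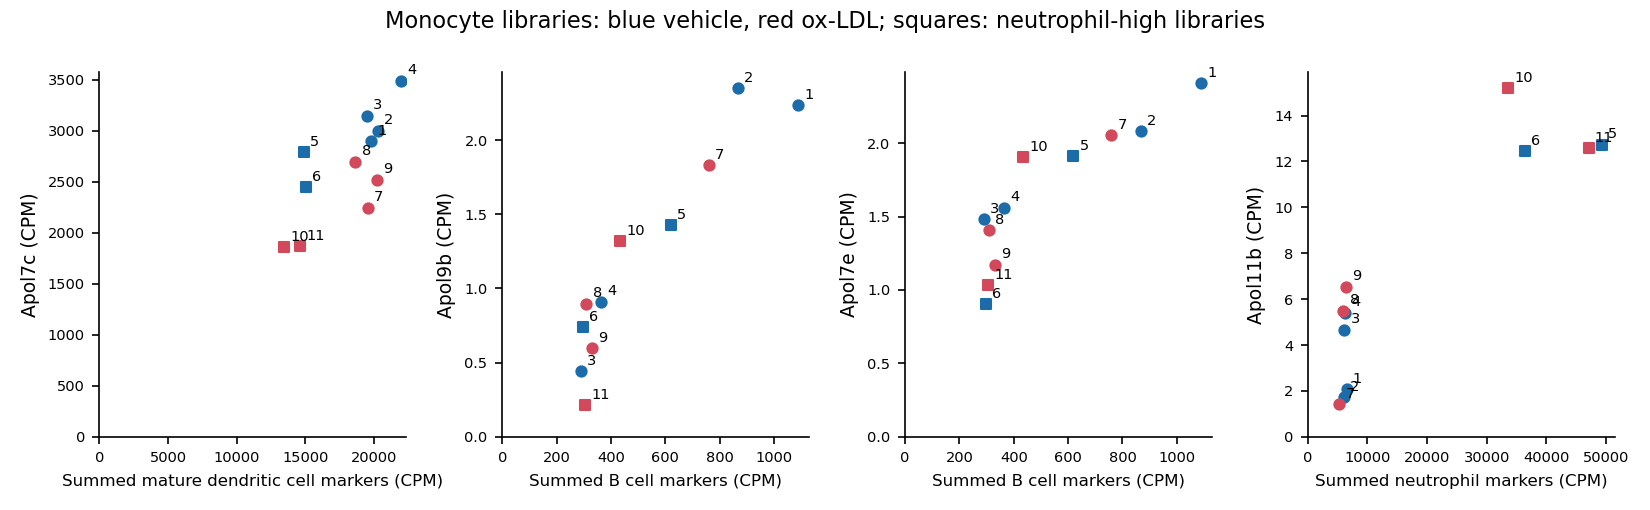
Each point is a monocyte library (blue vehicle, red ox-LDL, squares the 4 neutrophil-high libraries, with replicate numbers); the y axes give Apol7c, Apol9b, Apol7e and Apol11b in CPM and the x axes the summed CPM of mature dendritic cell, B-cell or neutrophil markers. Replicates 1, 2 and 7 are highest in B-cell markers, Apol9b and Apol7e, and the squares are highest in neutrophil markers and Apol11b. The squares are also highest in summed monocyte and macrophage markers, which are not drawn.

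The copies also differed in which other genes followed them over the 11 monocyte libraries. Likeness was measured as Pearson's r of log2 CPM with a prior count of 2, among genes outside the family at 5 CPM or more on average, and is a description since the libraries share treatment and cell makeup. Apol7c was most like Tnfsf4, which encodes the OX40 ligand given to T cells (r = 0.94 over 11 libraries, 0.87 over the 7 without the neutrophil-high ones), Traf1, an adaptor of tumour necrosis factor receptors (0.93 and 0.85), and Tmem110, a regulator of calcium entry at the endoplasmic reticulum (0.92 and 0.95). Traf1 is on the mature dendritic cell list. Apol10b was most like P2rx5, an ATP-gated channel (0.95 and 0.93), and Rasip1 (0.93 and 0.84).

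Apol7a and Apol7b followed each other closely, with r = 0.95 over 11 libraries and 0.99 over 7. Apol7a was most like Marcks, a membrane-bound actin regulator (0.94), the actin-capping gene Tmod2 (0.93) and H2-Q5 (0.93). Apol7b was most like Eml6 (0.96), Dtx2 (0.95) and Adrb1, a beta-adrenergic receptor (0.93). Apol7b did not follow Apol7e, its near-copy of 99.3% identity, with r = 0.01 over 11 libraries and -0.30 over 7. Apol7e instead followed Apol9b (0.83 and 0.89), and its most alike genes were Rhoh, a GTPase of lymphocytes (0.94), Faah (0.93) and Cc2d1b (0.93). Apol9b was most like Mfng, a modifier of Notch (0.95), Scml4 (0.93) and Tfeb, a regulator of lysosome genes (0.93). Apol9a was most like Ebag9 (0.91), Bdkrb2 (0.90) and Arl5c (0.90), which fell to 0.63, 0.60 and 0.59 without the neutrophil-high libraries.

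The members were nearly silent in macrophages with and without ox-LDL. Their levels in both macrophage groups were among those that chose them, so the values here are a description with no test. Of the 9 members, 0 passed the low-count filter, so 0 were tested in a comparison that called 342 of 14543 genes, or 2.35%, by edgeR (142 higher and 200 lower with ox-LDL). The split was 92 higher and 334 lower when libraries were scaled by their totals. Apol7c reads could still be counted: 34 in 5 vehicle libraries and 7 in 6 ox-LDL libraries. Vehicle replicate B and ox-LDL replicates H, J and K each had 2 reads. The difference of means was -0.13 CPM. The estimated log2 fold change was -2.41 ± 0.82 in the edgeR fit without the filter and -2.43 ± 0.49 in the edgeR fit over all 4 groups. Some other genes high in monocytes had lower means with ox-LDL: Hbb-bs was at 0.17 ± 0.22 CPM with vehicle and 0.026 ± 0.029 CPM with ox-LDL, Ccr7 at 2.39 ± 1.83 and 0.82 ± 0.97 CPM, and S100a9 at 0.35 ± 0.41 and 0.14 ± 0.28 CPM (SD, n = 5 and 6). Others did not, such as the neutrophil gene S100a8, at 3.77 ± 1.82 and 3.95 ± 0.81 CPM. The summed neutrophil markers averaged 239.1 and 242.4 CPM, but most of that sum was Csf3r (191.2 and 177.0 CPM) and Mmp8 (38.4 and 59.0 CPM). Of the neutrophil markers, S100a8, Mmp8, Mpo and Cxcr2 had higher means with ox-LDL. The rest had lower means, such as Ngp (0.52 and 0.19 CPM), Ltf (0.34 and 0.17 CPM) and Mmp9 (3.98 and 1.66 CPM). The part of leftover cells or RNA in the Apol7c trace was not tested.

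Since several members are known to respond to interferons, interferon-induced genes were read in the same comparison. Of 28 type I interferon-stimulated genes tested in macrophages, 17 fell and 0 rose with ox-LDL, against 1.38% of all genes called lower. Their median log2 fold change was -0.74, against 0.00 over all genes. Oasl2, an antiviral gene related to the OAS RNA sensors, fell from 35.9 ± 4.83 to 15.7 ± 2.59 CPM (log2 fold change -1.19 ± 0.12, adjusted p = 0.000155, edgeR). Ifit3, an RNA-binding antiviral gene, fell from 6.79 ± 2.38 to 1.52 ± 0.40 CPM (-2.15 ± 0.24, adjusted p = 0.000634, edgeR). Rtp4 (-1.51 ± 0.17) and Irf7, a transcription factor that amplifies interferon responses (-1.09 ± 0.14), fell as well. Between 11 and 22 of these genes were called lower, and 0 higher, under each alternative of scaling, test, filter and samples. Of 11 interferon-gamma-induced genes tested, 1 fell, the GTPase gene Irgm2 (-0.42 ± 0.07, adjusted p = 0.00563, edgeR). Estimates were below 0 for 10 of the 11, with a median of -0.43. An unadjusted p under 0.05 was found for 7, and DESeq2 called 6 and limma voom 1.

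In monocytes, 25 of 29 type I interferon-stimulated genes had estimates below 0, with a median of -0.38. None passed edgeR's adjusted threshold, 10 had an unadjusted p under 0.05, DESeq2 called 5 and limma voom 0. The interferon-gamma list had 11 of 13 estimates below 0 and a median of -0.28, with 0 called by edgeR, DESeq2 or limma voom and 3 at an unadjusted p under 0.05. The median of the 7 members that passed the filter is not given, since they were selected on this contrast. Apol9a and Apol9b, the known interferon-induced members, were at 1.06 ± 0.35 and 0.97 ± 0.63 CPM with ox-LDL (SD, n = 5), against 1.27 ± 0.15 and 1.35 ± 0.80 CPM with vehicle.

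Among apolipoproteins of other families, Apoe was higher in macrophages and Clu in monocytes. Apoe, which carries cholesterol out of macrophages, was at 4116 ± 896 CPM in vehicle monocytes, 4192 ± 360 CPM with ox-LDL, 26518 ± 8245 CPM in vehicle macrophages and 28274 ± 6632 CPM in ox-LDL macrophages (SD). Its log2 fold change with ox-LDL in macrophages was 0.10 ± 0.20 (adjusted p = 0.897, edgeR). Clu, which encodes clusterin, was at 28.8 CPM in vehicle monocytes and 0.22 CPM in vehicle macrophages. Of the 16 genes on this list, 5 were tested in macrophages and 0 were called by edgeR, DESeq2 or limma voom (0 at an unadjusted p under 0.05).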

How the data were processed

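Polyadenylated RNA from 22 mouse libraries was sequenced after low-input SMARTer preparation, per the labels' protocols. The authors used STAR 2.7.9a for alignment to GRCm38 and featureCounts 2.0.3 for counting, per the submitters' processing notes. The deposited table of each library holds raw read counts and, beside them, the authors' CPM, FPKM and TPM, which were not used for any value here; strand and multi-mapping settings are not stated there. Libraries held 37330389 to 50257111 counts. Symbols were matched for 99.4% of gene IDs.

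Counts were scaled with TMM and tested with edgeR 4.0.16 (R 4.3.3; quasi-likelihood F test, filterByExpr, Benjamini-Hochberg over all genes tested, threshold 0.05), within the pair of groups compared. DESeq2 1.42.0 and limma 3.58.1 (voom), other scalings, filters and sample sets were alternatives. A ratio against a group with 0 reads used a floor of 3 reads per group. The fits were tested on simulated data with planted changes. Members and gene lists were chosen with earlier results of these data known. Genes were named by a rule: all apolipoprotein L genes; per list, the up to 4 called genes with the smallest adjusted p in macrophages, or else the 2 most abundant; the 3 genes most like each member at 1 CPM or more over the 11 monocyte libraries; and 2 tested neighbours on each side of the cluster. Marker genes, Gm8221 and the abundant genes with the largest folds are named besides. A gene that this rule names for Apol10b is not reported here.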

Additional observations from a re-analysis of the deposited data

How the results depend on the processing

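The number of genes called with ox-LDL in macrophages (342) was 698 with DESeq2 and 80 in a fit over all 4 groups (6 higher, 74 lower), and 150 to 348 when each library was left out in turn. In monocytes the 4 calls became 151 with DESeq2, 7 with limma voom, 9 without the low-count filter, 259 in a fit over all 4 groups, 122 with the library set as a covariate and 0 without the 4 neutrophil-high libraries, and 0 to 8 with each library left out in turn. The cause of these shifts was not tested. Counts for macrophages against monocytes stayed within 1.5 times under all alternatives run, at 9835 to 10299 with vehicle and 9775 to 10419 with ox-LDL when each library was left out. For each of the 7 members fitted in monocytes, the ox-LDL estimate was below 0 in all 19 alternatives and called in 0, from -0.48 to -0.35 for Apol7c and from -0.83 to -0.22 for Apol9b. Summing the Apol7 copies, or Apol9a with Apol9b, was among them. It gave every Apol7 copy the estimate of the sum, -0.41, which is made mostly of Apol7c reads. In the main fit Apol7e was at -0.19. The members were selected on this contrast and the alternatives reuse the same libraries, so nothing is read from the constant sign. The Apol7c difference in macrophages lay between -0.158 and -0.101 CPM with each library left out, an alternative chosen after the data were seen. Depth limits Apol6, Apol8 and every member in macrophages, where single reads decide a ratio: without replicate E, Apol9b has 0 reads in vehicle macrophages and is at least 74.1-fold higher in monocytes, and without replicate A Apol10b has 0 reads and is at least 2998-fold higher. The Apol6 ratio rests on 1 macrophage read, in replicate C.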
